A study of Mus musculus with 8 samples.

Results

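The GADD45 family and the kinases it acts on were examined in AML12 cells, a hepatocyte line established from a mouse transgenic for human TGF-α. The set comprised 9 genes. It holds the 3 family members Gadd45a, Gadd45b and Gadd45g, the interacting protein Gadd45gip1, the kinase kinase kinase Map3k4, the kinase kinases Map2k4 and Map2k7, and the c-Jun N-terminal kinases (JNK) Mapk8 and Mapk9. Every array probe whose accession belongs to one of these genes was taken, which gave 14 of the 39429 probes on the array and 9 of 21612 named genes. Expression was measured on 8 one-color Agilent arrays, 4 from control cells and 4 from cells given 0.5 µg/ml irisin, both after 24 h of culture in DMEM F-12 with fetal bovine serum. Irisin is the peptide cleaved from Fndc5, and the comparison asks which transcripts differ in hepatocytes exposed to it. Both groups are of 1 cell line, and the labels do not say whether the replicates were grown as separate cultures, so p-values measure the spread between these samples, which may be technical.

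GADD45 proteins are small, stress-inducible proteins with no enzymatic activity of their own. They bind and open Map3k4 (also called MEKK4), which passes a signal through Map2k4 (MKK4) and related kinases to p38 and JNK. Gadd45β also binds Map2k7 (MKK7), an activator of JNK, and blocks its activity, by which it restrains JNK in cells exposed to TNF-α. In the liver Gadd45b is induced by phenobarbital through the nuclear receptor CAR, and the study from which these arrays come is centered on that gene. The arrays measure mRNA only. Activity of a kinase is set by phosphorylation, which they do not see.

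Values below are the log2 of the background-subtracted signal relative to the 75th percentile of the same array, and a change is irisin minus control on that scale. The test took the probes that every one of the 4 arrays of a group, in at least 1 of the groups, read well above background. These were 24093 probes, among them 13 of the 14 member probes and at least 1 probe of all 9 genes. A probe was called when the change reached 1.5-fold and the p-value of limma's moderated test after Benjamini-Hochberg adjustment over all tested probes was under 0.05. The probe with the highest mean signal stands for its gene. Of the 24093 probes 12.4% were called. Among all 14312 genes tested, 10.7% were called, 0.531% higher and 10.2% lower with irisin, and the median change was -0.064. The 75th percentile of signal was 372 to 534 on the control arrays and 682 to 850 on the irisin arrays. All control arrays were on 1 slide and all irisin arrays on another, so slide and treatment cannot be told apart. Hepatocyte identity was checked by 8 markers, among them Alb, Ttr and Hnf4a, all of which were well above background on all 8 arrays. Their summed signal over the 75th percentile was 448 to 498 on control and 363 to 426 on irisin arrays. The 2 brightest markers, Krt18 and Trf, weigh most in this sum and changed by -0.47 and -0.39. The change of Krt18 depends on the scaling, being -0.041 with quantile normalization, -0.2 with cyclic loess and 0.27 without scaling. Alb, Ttr and Hnf4a changed by 0.11, -0.049 and -0.097. Of the 8 markers limma called 0, and 2 had a change above 0. Of the markers of other cells, Krt7, Krt19, Sox9 and Spp1 of cholangiocytes were above background on every array, whereas the endothelial markers Cdh5 and Tek and the fibroblast markers Col3a1, Pdgfrb, Lum, Dcn and Des were above background on 0 arrays. The other markers read out on the arrays were Col1a1, Pecam1, Kdr, Cd68 and Csf1r on all 8, Ptprc on 5, Adgre1 and Clec4f on 3, and Epcam and Stab2 on 2. The part of these differences in the member values was not tested.

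The stretches just upstream of the family's genes are shown because the level of GADD45 proteins is set in large part at transcription, and mRNA is what these arrays read. Each run gives the 250 bases before the transcription start, 5′ to 3′ on the gene's strand, from the RefSeq promoter table of GRCm38.p6. Gadd45a lies on the minus strand at chr6:67037408-67037657, Gadd45b on the plus strand at chr10:80929841-80930090, and Gadd45g on the plus strand at chr13:51846425-51846674. Capitals mark the CCAAT box (CCAAT), the octamer (ATGCAAAT), the E-box (CACGTG) and the TATA box (TATAAA), each searched on both strands, and none of the marked stretches overlaps another.
Gadd45a: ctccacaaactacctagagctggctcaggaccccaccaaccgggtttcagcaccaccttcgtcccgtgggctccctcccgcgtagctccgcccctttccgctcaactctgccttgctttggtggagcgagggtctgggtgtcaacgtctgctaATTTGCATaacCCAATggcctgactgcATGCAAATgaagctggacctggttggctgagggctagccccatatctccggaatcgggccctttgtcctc
Gadd45b: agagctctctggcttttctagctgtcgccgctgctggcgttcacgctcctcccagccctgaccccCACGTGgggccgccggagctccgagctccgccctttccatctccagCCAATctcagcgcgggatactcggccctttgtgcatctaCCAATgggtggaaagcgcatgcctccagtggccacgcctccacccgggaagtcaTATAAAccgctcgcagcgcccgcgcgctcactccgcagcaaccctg
Gadd45g: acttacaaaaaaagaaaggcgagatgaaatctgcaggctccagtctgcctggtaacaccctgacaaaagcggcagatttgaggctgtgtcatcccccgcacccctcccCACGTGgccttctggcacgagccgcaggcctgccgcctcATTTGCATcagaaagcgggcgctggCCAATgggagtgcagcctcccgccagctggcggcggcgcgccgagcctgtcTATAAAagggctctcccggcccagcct
The octamer, which Oct-1 binds, was found 2 times before Gadd45a and once before Gadd45g, and in 1.60% of all 32851 windows of this length. The E-box, a motif of Myc and related factors, stood before Gadd45b and Gadd45g, and in 6.02% of all windows. The same pair carried a TATA box, which 12.4% of windows held. A CCAAT box, the motif of NF-Y, was present before all 3 genes, as in 33.8% of windows. A GC box (GGGCGG) stood before Gadd45a and Gadd45b, as in 32.7% of windows, and a p53 half-site before Gadd45a, as in 7.13%. The windows were 59.2%, 65.2% and 62.0% G or C for Gadd45a, Gadd45b and Gadd45g, where the median window had 52.4%. The CRE (TGACGTCA, in 1.55% of windows), the AP-1 site (TGANTCA, in 6.75%), the FOXO site (GTAAACA, in 3.17%) and the κB site (in 3.90%) were not matched in these 3 windows. These matches are a description of the letters and not of binding.

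Gadd45b, the family member that the study centers on, was expressed but did not pass the test. The control arrays read 1.61, 1.47, 1.63 and 1.54 and the irisin arrays 1.43, 1.64, 1.39 and 1.54. The groups overlapped, and the highest of the 8 values was on an irisin array. The change was -0.063 with a 95% interval of -0.25 to 0.13, which is a ratio of irisin to control of 0.957 between 0.839 and 1.09 (limma, adjusted p = 0.672). An exact two-sided permutation test gave p = 0.371, where the 70 ways to assign the arrays allow none below 0.0286. With this scaling, a change of 1.5-fold in either direction lies outside that interval. Without irisin replicate 2 the change was -0.11 (limma, adjusted p = 0.322). The interval depends on the scaling, since the change was 0.51 with spike-in scaling and 0.68 without scaling.

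Gadd45g, first described as a cytokine-responsive gene, had the brightest of the 3 probes. The control arrays read 5.43, 5.19, 5.22 and 5.25 and the irisin arrays 4.99, 5.42, 5.15 and 5.18. The other 3 irisin arrays lay below all controls, and the groups overlapped through irisin replicate 2, which stood at the level of the highest control array. The change was -0.087 (95% interval -0.32 to 0.14, limma, adjusted p = 0.625, exact permutation p = 0.314). Without irisin replicate 2 it was -0.16 (limma, adjusted p = 0.197).

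Gadd45a, the p53-responsive member, was the one family gene whose groups did not overlap. The control arrays read 2.58, 2.52, 2.41 and 2.56 and the irisin arrays 2.71, 2.67, 2.87 and 2.67, so all 4 irisin arrays were above all 4 controls. The change was 0.21 ± 0.083 (SE, n = 4 a group), a ratio of 1.16 with an interval of 1.02 to 1.31. The exact permutation test gave p = 0.0286, the smallest it can give, while limma's adjusted p was 0.0968, and the gene was not called. Groups that do not overlap were seen for 23.9% of all genes tested. Relative to the median of all tested probes the change was 0.29, and it was 0.36 after normexp background correction, 0.25 after cyclic loess and 0.23 after quantile normalization. That median was -0.08 as first scaled and -0.17 after normexp. Without subtracting it, the change after normexp was 0.19 (limma, adjusted p = 0.104).

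Whether Gadd45a differed from its relatives was tested within arrays, where no scaling by a constant enters. The log2 ratio of Gadd45a to Gadd45b was higher with irisin by 0.27 (exact permutation p = 0.0571), and that of Gadd45a to Gadd45g by 0.30 (exact permutation p = 0.0857). The ratio of Gadd45b to Gadd45g differed by 0.024 (exact permutation p = 0.743). These are 3 of 9 ratios computed after the data had been seen, and the first 2 had p = 0.154 after Benjamini-Hochberg adjustment of the exact values over the 9. A difference in response among the family genes was therefore not established with 4 arrays a group.

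**Figure D1:**
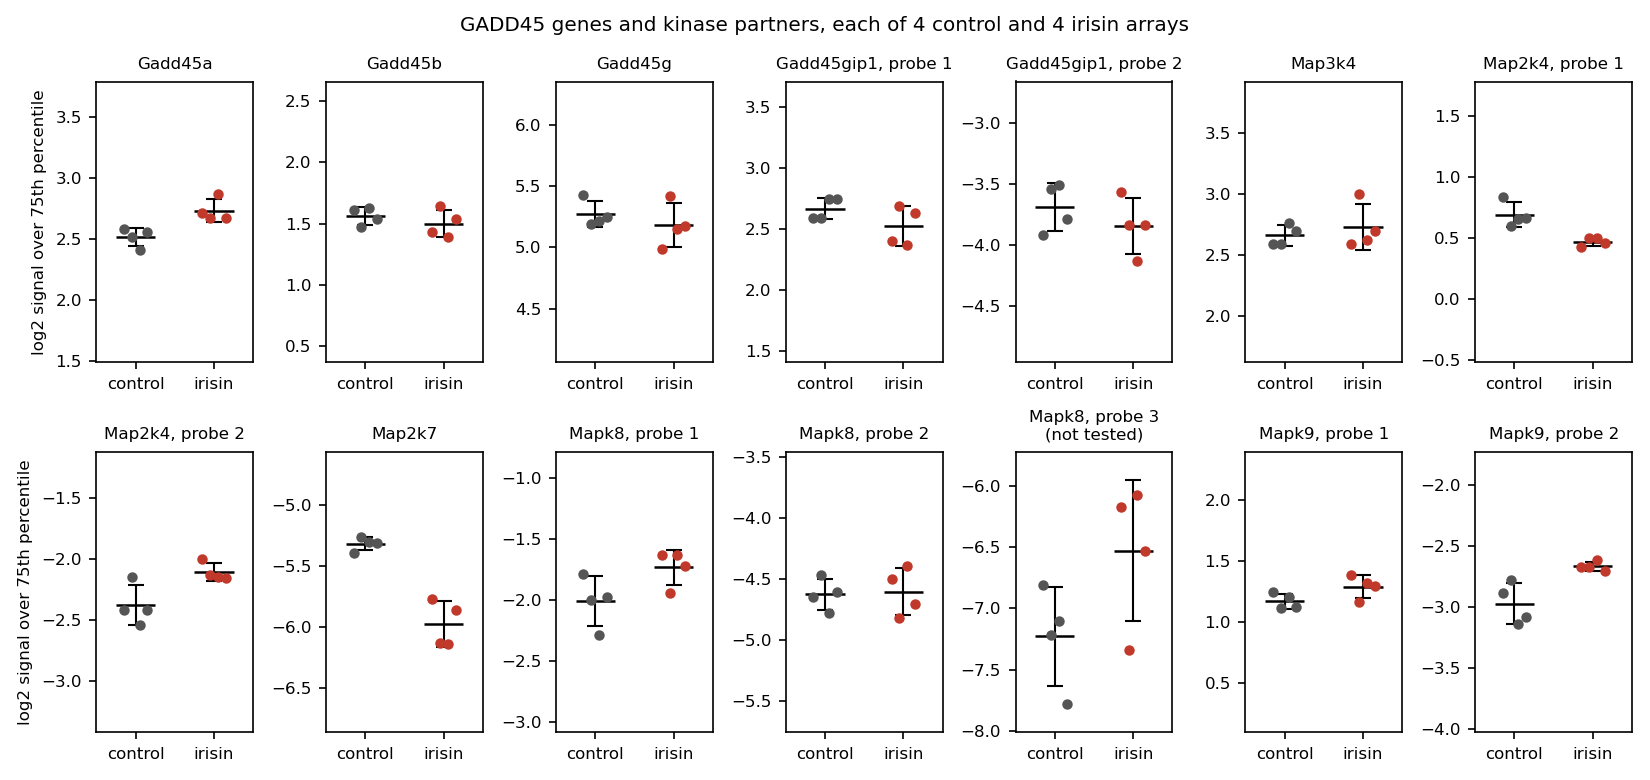
Log2 signal over the array's 75th percentile (y axis, equal span in every panel) for the 14 member probes on 4 control (gray) and 4 irisin (red) arrays, with the mean (line) and SD (bar) of each group. Gadd45a, the first Map2k4 probe, Map2k7 and the second Mapk9 probe have groups that do not overlap, and Gadd45b and Gadd45g have overlapping groups.

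The genes whose pattern over the 8 arrays lay nearest to Gadd45b were ordered by the root mean square difference of their centered log2 values. Rnaset2a came first at 0.0183, followed by Cenpv at 0.0223, Dynlrb1 at 0.0249, Rps7 at 0.0279 and Zfand2a at 0.0292, where the median gene was at 0.158 among 14256 genes. None of the 5 was called, and their changes lay between -0.086 and -0.042. Gadd45g stood at rank 1932 with 0.0842 and Gadd45a at rank 8702 with 0.195. The measure favors genes that vary little, and Gadd45b was among them, with a pooled SD of 0.094 that was larger than for 13.9% of tested probes.

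Gadd45gip1, known also as CRIF1, binds GADD45 proteins and is a component of the large subunit of the mitochondrial ribosome. On its first probe the control arrays read 2.59, 2.59, 2.74 and 2.74 and the irisin arrays 2.40, 2.69, 2.37 and 2.63. The irisin arrays fell into a lower and a higher pair, and the groups overlapped. The changes of the 2 probes were -0.14 and -0.15 (limma, adjusted p = 0.36 and 0.486), the second being a dim probe at 1.95 to 3.83 times its local background. Its partners in that ribosomal subunit were described by 49 Mrpl genes, all tested. By limma 0 were called, where 10.7% of all genes were, 5 had an unadjusted p under 0.05, where 29.5% of all genes did, 12 had a change above 0, and the median was -0.08. Most Mrpl probes are bright, and these shares of all genes are not matched for signal. With all tested probes in 10 equal bins by signal, 45.2% were called lower in the dimmest bin. In the second brightest and the brightest bin 0.208% and 2.24% were. The largest change was that of Mrpl55, from 2.77, 2.60, 2.70 and 2.76 on control to 2.34, 2.60, 2.17 and 2.39 on irisin arrays, a change of -0.33 (limma, adjusted p = 0.0358) that stayed short of 1.5-fold.

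Map3k4, the kinase that GADD45 proteins open, did not pass the test. The control arrays read 2.59, 2.59, 2.76 and 2.69 and the irisin arrays 2.59, 3.00, 2.62 and 2.69. Apart from irisin replicate 2, the irisin values lay within the range of the controls. The change was 0.072 (95% interval -0.16 to 0.30, limma, adjusted p = 0.696), and without that replicate it was -0.02.

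Map2k7 was the only member gene called, and it was lower with irisin. The control arrays read -5.39, -5.26, -5.30 and -5.31 and the irisin arrays -5.77, -6.13, -6.14 and -5.86. The 4 control values lay close together, and all 4 irisin values were below them. The change was -0.66 ± 0.10 (SE, n = 4 a group), or 1.58-fold lower (95% interval of the log2 change -0.89 to -0.44, limma, adjusted p = 0.00084, exact permutation p = 0.0286). It remained called without any 1 array, at -0.73 to -0.61. The call rests on a dim probe. Its raw signal was 1.24 to 1.48 times the local background on control arrays and 1.29 to 1.97 times on irisin arrays. Before scaling, its background-subtracted signal was 8.85 to 13.6 on control and 9.73 to 14.6 on irisin arrays, so the unscaled values of the groups overlapped. The probe stood at the percentile 11.6 of mean signal among tested probes. With the probes split into 10 equal bins by signal, the median change in the bin of Map2k7 was -0.33 and 34.3% of its probes were called lower, against 0.208% in the bin that holds Gadd45a. Quantile normalization, which aligns dim and bright probes alike, gave -0.24 (limma, adjusted p = 0.114) and cyclic loess -0.22 (limma, adjusted p = 0.171), so the call was lost under both, where 3.81% and 3.41% of all genes were called lower.

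**Figure D2:**
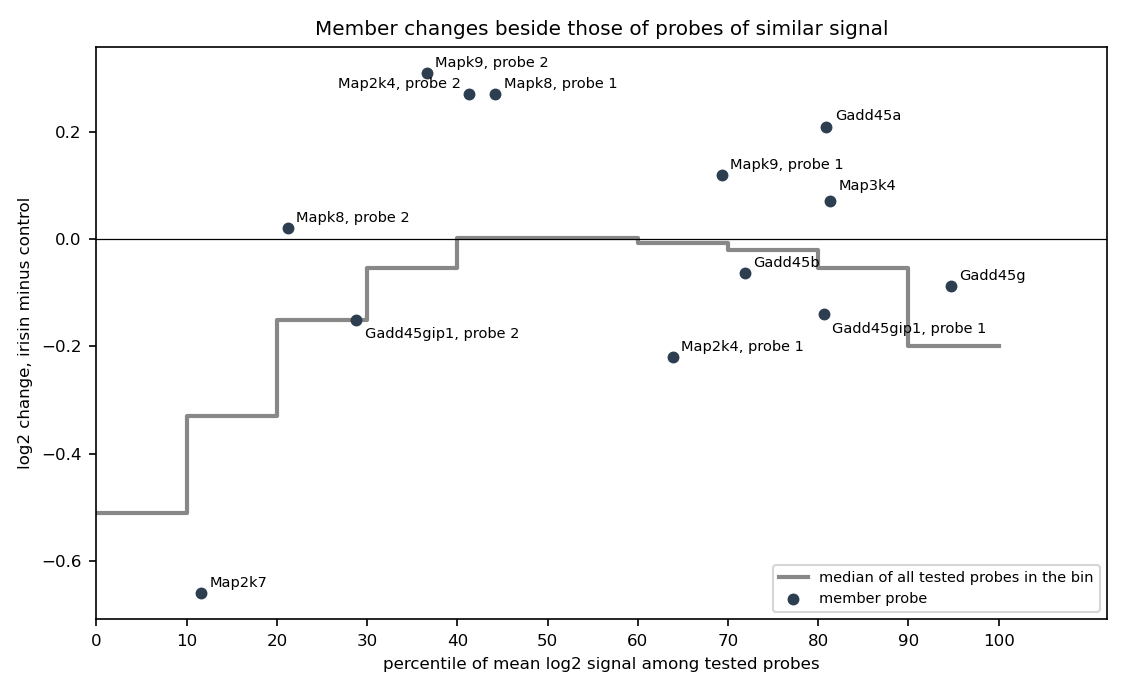
Log2 change, irisin minus control (y axis), of the 13 tested member probes (points) against the percentile of their mean log2 signal among all tested probes (x axis), with the median change of all tested probes in each of 10 equal bins of signal (gray steps). Map2k7 at -0.66 lies among dim probes, whose median was -0.33, and Gadd45a at 0.21 lies among bright probes, whose median was -0.054.

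Map2k4, the second JNK kinase kinase, had 2 probes that went opposite ways. On the first, bright probe the control arrays read 0.84, 0.60, 0.66 and 0.67 and the irisin arrays 0.43, 0.50, 0.50 and 0.46. All irisin values lay below all controls, with a change of -0.22 ± 0.080 (SE, n = 4 a group) that limma did not call (adjusted p = 0.0762, exact permutation p = 0.0286). On the second probe the control arrays read -2.42, -2.15, -2.54 and -2.42 and the irisin arrays -2.0, -2.13, -2.15 and -2.16. The groups overlapped there through control replicate 2, and the change was 0.27 (limma, adjusted p = 0.0669, exact permutation p = 0.0571). The log2 ratio of the first probe to the second was lower with irisin by 0.49 on average, a change of -0.49 with no overlap of the groups (exact permutation p = 0.0286, or 0.154 adjusted over the 9 ratios). The 2 probes therefore give no single direction for Map2k4 transcripts, and which transcripts each one reads was not tested.

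Mapk8 (JNK1) was covered by 3 probes. On the first the control arrays read -1.78, -2.0, -2.28 and -1.97 and the irisin arrays -1.63, -1.94, -1.63 and -1.72. Only irisin replicate 2 lay within the control range, and the change was 0.27 (95% interval 0.011 to 0.54, limma, adjusted p = 0.129). After normexp background correction it was 0.028 (limma, adjusted p = 0.854). Relative to the median of all tested probes it was 0.36 as first scaled and 0.2 after normexp. The second probe changed by 0.021 (limma, adjusted p = 0.926). The third was not well above background on any control array and was above it on 3 irisin arrays, so it did not enter the fit. It read -6.81, -7.22, -7.10 and -7.78 on control and -6.17, -7.34, -6.07 and -6.53 on irisin arrays. Irisin replicate 2, which was also not above background, lay below 3 of the controls, so the groups overlapped (exact permutation p = 0.114).

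Mapk9 (JNK2) had changes above 0 on both probes. The first read 1.24, 1.11, 1.2 and 1.12 on control and 1.38, 1.16, 1.32 and 1.29 on irisin arrays, with a change of 0.12 (limma, adjusted p = 0.355). The second read -2.88, -2.78, -3.14 and -3.08 on control and -2.67, -2.67, -2.61 and -2.70 on irisin arrays. All irisin values lay above all controls and closer together than they did. The change of 0.31 ± 0.095 (SE, n = 4 a group) had an adjusted p of 0.037 (limma) but was 1.24-fold and so below the threshold of 1.5-fold. With the adjusted p alone as the rule, 24.5% of all probes were called, and 2 of the 13 member probes, Map2k7 and this one.

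In all, 1 of the 9 genes was called, 0 higher and 1 lower, where 10.7% of all genes were called, and 4 had a change above 0. The median over the 9 genes was -0.063, beside -0.064 for all genes. Before adjustment, 4 of the 9 had p under 0.05, Gadd45a and Mapk8 above 0 and Map2k4 and Map2k7 below it, where 29.5% of all genes had one. Of the 13 tested probes, 4 had groups that did not overlap, against 27.2% of all probes.

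**Figure D3:**
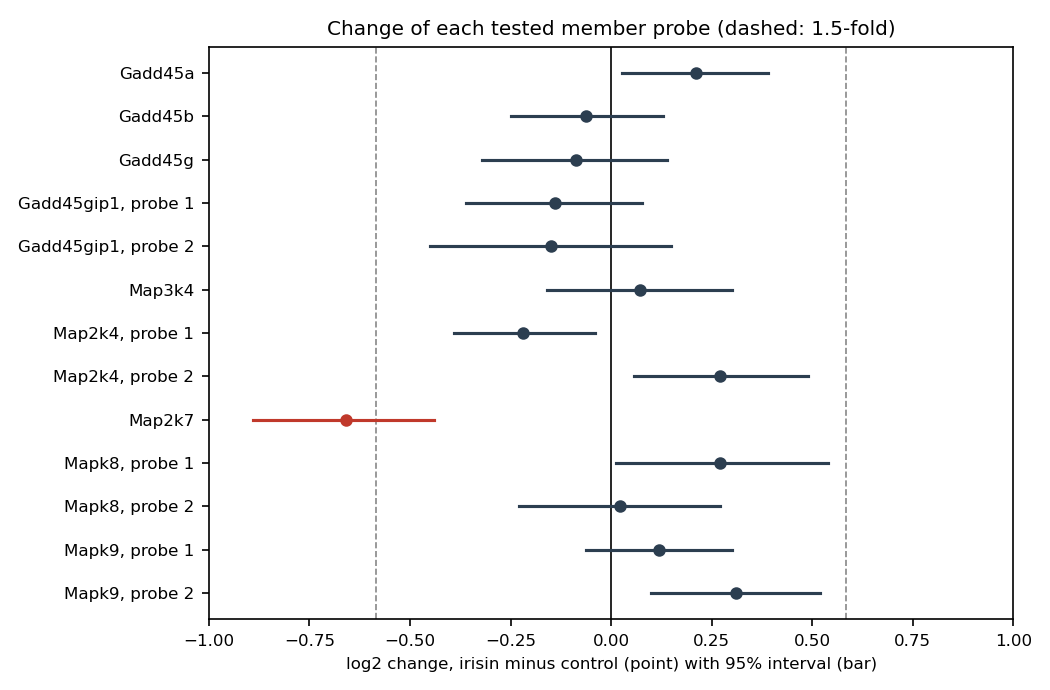
Log2 change, irisin minus control (x axis), of the 13 tested member probes with the 95% interval of limma's fit (bars) and the 1.5-fold thresholds (dashed lines). The Map2k7 point (red, called) lies beyond the lower dashed line at -0.66, and the intervals of Gadd45b and Gadd45g lie within the thresholds and include 0.

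The arrays of the irisin group were brighter as a whole, so the direction of a member depends on how arrays are set against each other. Over all tested probes, the median change was -0.08 with the 75th percentile, 0.0095 with quantile normalization, 0.024 with cyclic loess, 0.50 with the 8 spike-in probes and 0.66 without scaling. Scaling to the spike-in probes called 4 of the 9 members, all higher (Mapk8 at 0.85, Gadd45a at 0.79, Mapk9 at 0.69 and Map3k4 at 0.65), where 33.4% of all genes were called higher. Without scaling 7 members were called higher, where 66.8% of all genes were, and Gadd45b was at 0.68 and Map2k7 at 0.078. Of the 6 scalings plotted, 4 shift all probes of an array by a constant, so values relative to the median of all tested probes are the same under them by construction. On that relative scale Gadd45b was at 0.018, and at -0.073 after quantile normalization, -0.056 after cyclic loess and 0.18 after normexp correction. Map2k7 was at -0.58, and at -0.25, -0.24 and -0.50 under these 3. The second Mapk9 probe was at 0.39, and at 0.38, 0.40 and 0.13.

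**Figure D4:**
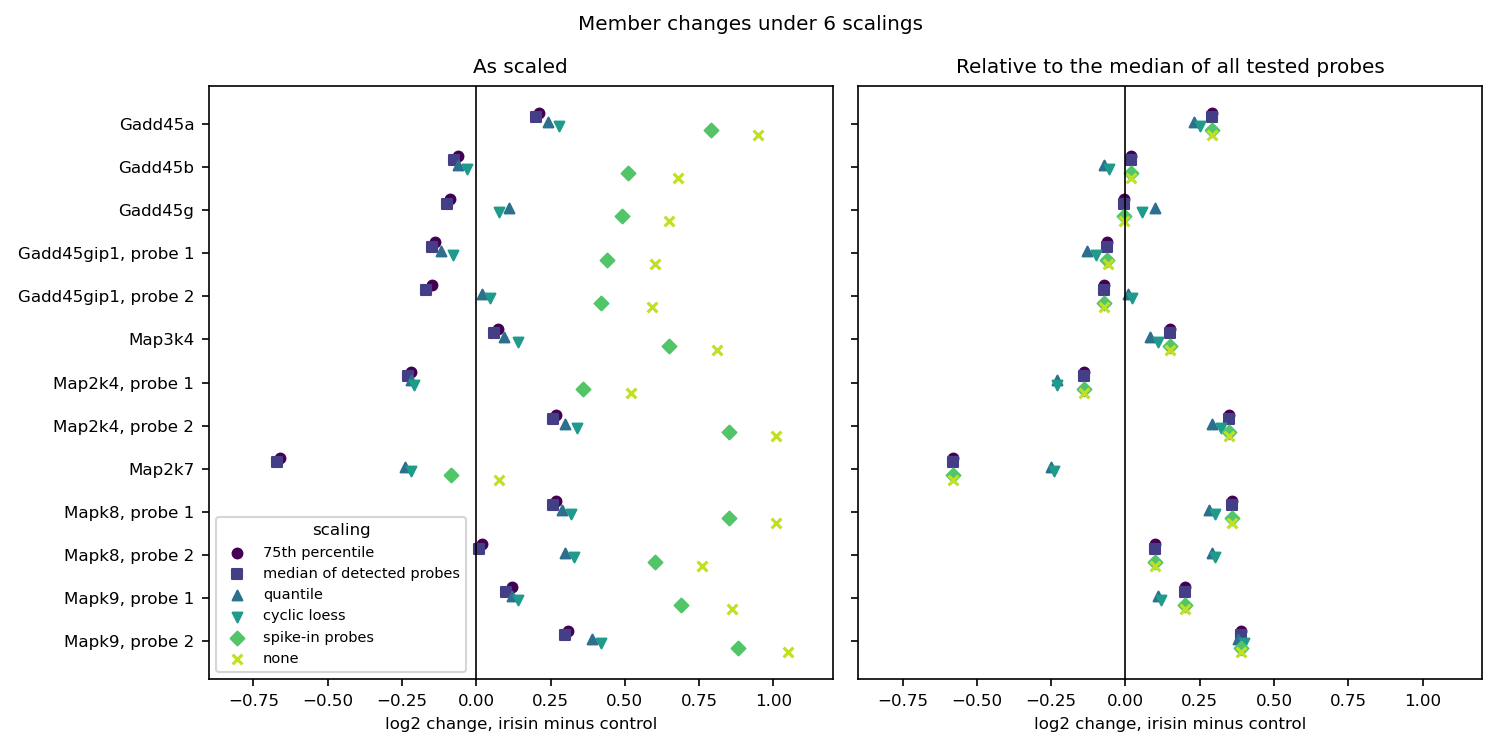
Log2 change, irisin minus control (x axes), of the 13 tested member probes under 6 scalings (symbols), as scaled (left) and relative to the median of all tested probes (right). On the left, spike-in scaling and no scaling shift all members to the right, and on the right the 4 scalings that shift an array by a constant coincide by construction, while quantile normalization and cyclic loess put Gadd45a at 0.23 and 0.25 and Map2k7 at -0.25 and -0.24.

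The rest of the cascade was described by 49 genes, of which 46 were tested. None was called higher and 2 were called lower, where 0.531% and 10.2% of all genes were, and the median change was -0.018. Both called genes are kinase kinase kinases of the mixed-lineage group that feed JNK. Map3k13 (LZK) read -4.19, -3.91, -3.71 and -3.59 on control and -4.95, -4.81, -4.87 and -4.67 on irisin arrays. The groups did not overlap, and the change was -0.97 ± 0.13 (SE, n = 4 a group, limma, adjusted p = 0.000395). It was also called with quantile normalization at -0.74 and with cyclic loess at -0.70, but neither with spike-in scaling (-0.39) nor without scaling (-0.23). Map3k10 (MLK2) read -4.53, -4.28, -4.54 and -4.51 on control and -4.94, -5.02, -5.34 and -4.96 on irisin arrays, with a change of -0.60 (limma, adjusted p = 0.00237). The call was lost with cyclic loess (-0.27), quantile normalization (-0.29) and spike-in scaling (-0.023), and without scaling the change turned to 0.14. It was lost too on leaving out control replicate 2 (-0.54) or irisin replicate 3 (-0.51). Both probes are dim.

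Among 10 tested MAP kinases and scaffolds limma called 0, and 2 had an unadjusted p under 0.05. Mapk13 (p38δ), read by a dim probe, had the largest change at -0.43 (limma, adjusted p = 0.0138, short of 1.5-fold). Its change was -0.2 with quantile normalization, -0.16 with cyclic loess and 0.31 without scaling. Mapk14, the main p38 kinase, read 3.43, 2.55, 3.50 and 3.41 on control and 3.37, 3.40, 3.26 and 3.34 on irisin arrays, with control replicate 2 far below the rest. Its change was 0.12 on this probe (limma, adjusted p = 0.715) and -0.14 on a second one (limma, adjusted p = 0.432). All 8 JNK substrates were tested, of which limma called 0 and 1 had an unadjusted p under 0.05. Jun itself changed by 0.038 (limma, adjusted p = 0.945) and Atf3, a stress-induced transcription factor, by 0.16 (limma, adjusted p = 0.24). Elk1 had the largest change, -0.43 on its bright probe (limma, adjusted p = 0.00456) and -0.046 on its other probe (limma, adjusted p = 0.837). The bright probe was at -0.042 with quantile normalization, -0.18 with cyclic loess and 0.31 without scaling. Of 10 phosphatases that act on JNK or p38, limma called 0 and 3 had an unadjusted p under 0.05. Dusp1 changed by 0.041 (limma, adjusted p = 0.778) and Dusp2, dim and above background on 3 control arrays, by -0.48 (limma, adjusted p = 0.0569). Within the cascade 10 of 46 genes had an unadjusted p under 0.05, where 29.5% of all genes did.

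The partners and regulators of the family were 91 genes, of which 83 were tested, with a median of -0.081. Of these, 2 were called higher and 1 lower, where 0.531% of all genes were called higher and 10.2% lower. The 1 called lower, Cyp2c37, passed the filter through the control group alone. The mostly bright Mrpl genes are 49 of the 83, so the share over all genes is not matched for signal. The 2 called higher were regulators of Gadd45 transcription. Myc, which represses Gadd45a in growing cells, read 2.45, 2.38, 2.45 and 2.65 on control and 3.1, 3.1, 3.16 and 3.11 on irisin arrays. All irisin values lay above all controls and close together, and the change was 0.63 ± 0.083 (SE, n = 4 a group, limma, adjusted p = 0.000362). It was called under all 6 scalings, at 0.62 to 1.37. Trp53, which encodes p53, the activator of Gadd45a after DNA damage, read -1.10, -1.04, -0.95 and -0.64 on control and -0.71, -0.048, -0.048 and -0.21 on irisin arrays. The groups overlapped through control replicate 4 and irisin replicate 1. The change was 0.68 ± 0.16 (SE, n = 4 a group, limma, adjusted p = 0.00914), and Trp53 was called under all 6 scalings too, at 0.66 to 1.42, though not by the methods' test (adjusted p = 0.0509 by analysis of variance in each gene, as the study's methods name it). Cdkn1a, the best known target of p53, changed by -0.088 (limma, adjusted p = 0.635).

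The other regulators of the family were not called. Smad3 and Smad4, through which TGF-β induces Gadd45b, changed by 0.087 and 0.0088 (limma, adjusted p = 0.524 and 0.957), and Rela, the NF-κB subunit that induces Gadd45b after TNF-α, by -0.11 (limma, adjusted p = 0.405). Atf4 of the stress response changed by -0.35 (limma, adjusted p = 0.0298) and Foxo3 by -0.58 (limma, adjusted p = 0.0162), both short of 1.5-fold. The Foxo3 probe is dim, near the signal of Map2k7, and its groups overlapped (exact permutation p = 0.0571). The Atf4 probe is brighter than that of Gadd45g, which lies in the brightest of 10 signal bins, where the median change was -0.2. Of the 12 nuclear partners, with which the family takes part in the cell cycle, DNA repair and demethylation, limma called 0 on the probe that stands for the gene, 5 had an unadjusted p under 0.05, where 29.5% of all genes did, and 1 had a change above 0. That 1 was Ercc5, the repair endonuclease XPG, at 0.31 (limma, adjusted p = 0.0444). Tet3, which oxidizes methylated cytosine, had the largest change at -0.58 (limma, adjusted p = 0.00257), and a second Tet3 probe was called at -0.65 (limma, adjusted p = 0.00104). Pcna and Cdk1 changed by -0.18 each (limma, adjusted p = 0.171 and 0.209).

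CAR, the receptor through which phenobarbital induces Gadd45b, and its liver targets were in good part too dim to test in AML12 cells. Of 14 such genes, 13 were on the array and 7 were tested, and Nr1i3 (CAR itself), Cyp2b10 and Fndc5 were not among the tested. Cyp2c37 was called lower, from -6.10, -6.60, -6.69 and -6.55 on control to -7.71, -9.15, -7.34 and -7.60 on irisin arrays. It was above background on 4 control arrays and 1 irisin array, so it passed the filter through the control group alone. Its change of -1.46 (limma, adjusted p = 0.00799) leans on values near the floor. The filter favors that direction, so the call is no result about Cyp2c37. Quantile normalization (-0.82) and cyclic loess (-0.87) did not call it. With only probes above background on all 8 arrays, limma called 0 of 81 partners and regulators lower, where 9.08% of all genes were. Por, the reductase that serves cytochromes P450, changed by -0.33 (limma, adjusted p = 0.0381), short of 1.5-fold.

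**Figure D5:**
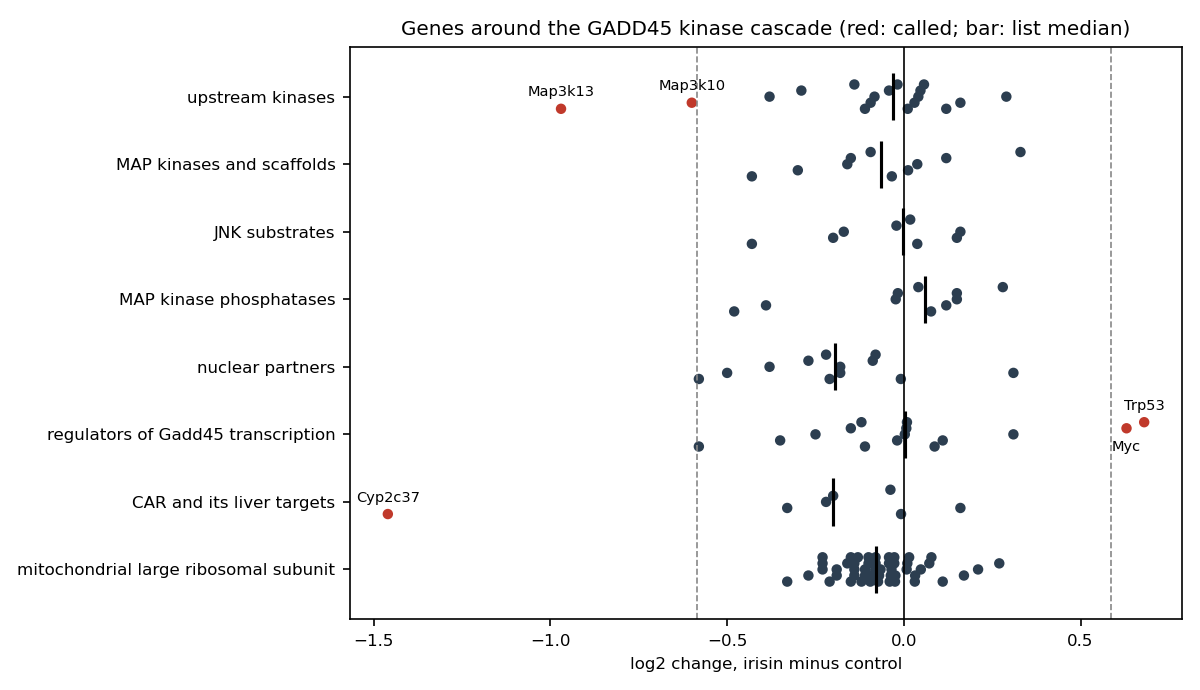
Log2 change, irisin minus control (x axis), of the tested genes of 8 lists around the family (rows), with called genes in red, the list median as a bar and the 1.5-fold thresholds dashed. Myc and Trp53 lie beyond the upper threshold and Map3k10, Map3k13 and Cyp2c37 beyond the lower one. Cyp2c37 passed the filter through the control group alone.

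Among markers of cells, Pecam1 was called at -0.61 (limma, adjusted p = 0.00214), a dim probe. The call was lost with quantile normalization (-0.32), cyclic loess (-0.28) and spike-in scaling (-0.034) and on leaving out control replicate 4 (-0.52) or irisin replicate 1 (-0.55), and the change turned to 0.13 without scaling. The largest changes in the other marker lists were Krt18 at -0.47 (limma, adjusted p = 0.00522), Spp1 at 0.35 (limma, adjusted p = 0.19), Csf1r at -0.49 (limma, adjusted p = 0.00139) and Col1a1 at 0.0064 (limma, adjusted p = 0.981), none of which was called, though a second Csf1r probe was called at -0.74 (limma, adjusted p = 0.000178).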

How the data were processed

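The 8 samples were grouped as control or irisin by their deposited labels. The authors labeled total RNA with Cy3, hybridized it to Agilent mouse arrays and extracted spot values by Feature Extraction (version 12.0.3.1 per the file headers), a program that subtracts background. The authors deposited signal intensity on a linear scale, not normalized between arrays. The deposited value table equals the mean processed signal of a probe's spots to within 0.0005%, with column medians of 13.8 to 25.2.

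Spots marked as outliers were left out (at most 0.463% of an array, none of a member), spots of a probe were averaged, and log2 values were taken relative to each array's 75th percentile. Accessions named 28663 of 39429 probes (72.7%) by a table of RefSeq genes (GRCm38.p6). The fit was made on all 24093 tested probes with limma 3.58.1 in R 4.3.3 (lmFit, eBayes). Tables and plots were made with Python 3.11.15, pandas 2.3.3, numpy 2.4.6 and matplotlib 3.10.9. On simulated arrays of the irisin against control comparison with 24023 probes, 92.5% of 200 probes changed by 1 on the log2 scale were recovered and 1 unchanged probe was called. The simulation held independent normal noise, with no difference between slides and no shift with signal. It therefore checks the code and does not give the error rate of these arrays. The planted change was also larger than that of any tested member probe as scaled here. The number of arrays, 4 a group, limits the precision, and between 59.5% and 64.1% of probes were well above background on an array.

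The members and gene lists were chosen with earlier results of these data known. The genes named are all members, in each list the called genes and the gene with the largest change, and the 5 genes nearest to Gadd45b in pattern. Any other gene was named after its values were seen, for its known role. Alternatives were other scalings, background correction and filters on dim probes, the value table, use of marked spots, robust eBayes with an intensity trend, the methods' test, other thresholds, averaging a gene's probes, a block for the replicate number, and leaving out each array. Normexp correction with negative control spots was chosen after seeing the data, because the default fit failed on 2 irisin arrays, and the within-array ratios were chosen after seeing the data too. The other arrays of the study were not analysed here.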

Additional observations from a re-analysis of the deposited data

Results flagged for a closer look

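In groups of 4 arrays, the distance of the most extreme value from its nearest neighbor was compared with the whole range of the group. Of 60 groups of the members and named genes, 3 had a value past the 95% critical ratio of Dixon's test, and chance alone gives about 5% of groups. For the second Map2k4 probe, irisin replicate 1 read -2.0 while the other 3 irisin arrays lay between -2.16 and -2.13, a ratio of 0.842. For Map3k10, control replicate 2 read -4.28 while the other controls lay between -4.54 and -4.51, a ratio of 0.89. For Mapk14, control replicate 2 read 2.55 while the other controls lay between 3.41 and 3.50, a ratio of 0.912.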

How the results depend on the processing

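Of 273 recomputed changes of the member probes, 234 kept their direction and their side of the threshold. Many of these could not turn. Settings that alter only the filter on dim probes, the test or the replicate block leave a member's change as it is by construction. The deposited value table and the use of marked spots rest on nearly the same signals. The 234 are therefore not independent checks. In all 22 turned, 18 became called, 4 of them turning as well, and 4 lost the call, 1 of them turning as well. The number of member genes called was 1 as reported, 0 with a 2-fold threshold, with cyclic loess or with quantile normalization, 4 with spike-in scaling and 7 without scaling, and stayed 1 without any 1 array (1 to 1). Of all genes, 2.69% were called lower at 2-fold, 3.41% with cyclic loess and 3.81% with quantile normalization. Called higher were 33.4% of all genes with spike-in scaling and 66.8% without scaling. The number of member probes called was 1, and 0, 0, 0, 7 and 11 under these settings, 2 with the adjusted p alone (where 24.5% of all probes were), and 1 to 2 without 1 array. The second is the third Mapk8 probe, which enters the test only without irisin replicate 2, and was then at 0.97. It was above background on 0 control arrays, so it passed the filter through the irisin group alone. Its direction is therefore set by the filter and is no result about Mapk8. With control values raised to each array's lowest value above background, all 8 arrays gave a difference of 0.17.

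Cascade genes called were 2, and 4 with normexp and with no filter on dim probes, 21 with spike-in scaling, 33 without scaling, 7 with the adjusted p alone and 0 at 2-fold. Of all genes, 13.5% were called lower with normexp and 29.0% with no filter. Called higher were 33.4% with spike-in scaling and 66.8% without scaling. The adjusted p alone called 20.6% in either direction, and 2.69% were lower at 2-fold. They were 1 to 3 without 1 array, with 1 without control replicate 2 and without irisin replicate 3. Partners and regulators called were 3, and 6 with normexp, 5 with scaling to the median of detected probes, 19 with spike-in scaling, 60 without scaling, 7 with no filter, 1 by the methods' test, 11 with the adjusted p alone and 1 at 2-fold. Scaling to the median of detected probes called 10.6% of all genes lower, and the methods' test 9.42%. The other shares are those given for the cascade. They were 3 to 5 without 1 array, with 5 without control replicate 1 and without irisin replicate 2. All tested probes called were 2988, of which 5.76% were higher. Quantile normalization called 1691 (39.6% higher) and cyclic loess 1625 (43.0%). The count was 8179 (95.6%) with spike-in scaling, 15082 (98.9%) without scaling, 12934 with no filter, 5910 with the adjusted p alone and 801 at 2-fold.

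Directions turned as follows. Without scaling Gadd45b was at 0.68, Gadd45g at 0.65, the Gadd45gip1 probes at 0.60 and 0.59, the first Map2k4 probe at 0.52 and Map2k7 at 0.078. With spike-in scaling Gadd45b was at 0.51, Gadd45g at 0.49, the Gadd45gip1 probes at 0.44 and 0.42 and the first Map2k4 probe at 0.36, and Map2k7 was at -0.084. Quantile normalization put Gadd45g at 0.11 and the second Gadd45gip1 probe at 0.019. Cyclic loess put them at 0.078 and 0.046. With normexp, Gadd45b was at 0.012, the second Mapk9 probe at -0.038 and the second Mapk8 probe at -0.40. Without 1 array the second Mapk8 probe ranged from -0.05 to 0.093, turning without control replicate 3 (-0.03), irisin replicate 1 (-0.015) and irisin replicate 3, and Map3k4 ranged from -0.02, without irisin replicate 2, to 0.12. The cause was not tested.

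Same-numbered samples had correlations of their deviations of 0.132, -0.379, -0.144 and 0.177, within or below the range of differently numbered ones (-0.256 to 0.397). With 4 arrays a group, this cannot exclude that the samples were paired. With the replicate number as a block 1 member was called, Map2k7, and 3005 probes in all. Slide as a block could not be fitted, since each slide holds 1 group. Signal over background limits Map2k7, since its spot was read at 1.24 to 1.97 times the local background.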
